A study of Homo sapiens with 4 samples.

Results

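The 10 genes described here are read together as a gauge of where a cell lies between an epithelial and a mesenchymal state. They were chosen by name, with earlier results of these data known, and all 10 were present among the 35371 gene symbols of the table. By role, 2 are structural genes of mesenchymal cells (VIM and CDH2), 4 are epithelial adhesion genes (CDH1, EPCAM, CLDN6 and CLDN7) and 4 are transcription factors that drive the epithelial-mesenchymal transition, or EMT (ZEB1, ZEB2, SNAI2 and TWIST1). The samples were A2780 cells, an established human ovarian cancer line grown in DMEM with serum, in 2 groups of 2 libraries: cells given GD-07, which the series describes as an inhibitor of the transcription factor MYC, and control cells. The series text mentions vehicle for the controls, while the sample labels list no treatment for them. The sources used here give neither dose nor time. They also leave unsaid whether the libraries of a group came from separate cultures, so each p reflects spread among libraries that could be purely technical.

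Epithelial cells hold to each other through E-cadherin (CDH1) in adherens junctions, through claudins in tight junctions and through EpCAM on the lateral membrane. In EMT, factors of the ZEB, SNAI and TWIST families repress such genes, while N-cadherin (CDH2) and the intermediate filament protein vimentin (VIM) become prominent. ZEB and SNAI proteins are zinc finger repressors that bind the E-box CAGGTG, which reads CACCTG on the other strand. Ovarian cancers are known for mixing features of both states, and cell lines derived from them span the range.

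Levels are given in TPM, a length-corrected share of the transcripts of a library, so genes can be compared within a library. TPM keeps no read depth, hence no counting interval can be attached to a value, and a low value does not show absence. Each of the 13063 genes that averaged 1 TPM or more over all 4 libraries was tested, with limma on log2(TPM + 1) and a Benjamini-Hochberg adjusted p under 0.05 over all of them as the threshold. Of the 10 genes 7 met that mean, and CLDN6, CDH1 and CDH2 did not. The added 1 TPM shrinks the fold changes of low genes. GD-07 replicate 2 stood apart from the other libraries in its composition. Mitochondrially encoded transcripts held 6.52% of its listed TPM, against 2.52% in GD-07 replicate 1 and 3.72% to 4.36% in the controls. Its most abundant symbol held 4.25%, against 0.83% to 1.16% elsewhere. It had 14683 symbols at 0, against 11598 to 12346 elsewhere. Over the 13063 tested genes, as log2(TPM + 1), GD-07 replicate 1 was no closer to GD-07 replicate 2 (correlation 0.982) than to control replicate 2 (0.983). It was least close to control replicate 1 (0.9745). Likeness to GD-07 replicate 1 thus did not separate the groups.

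VIM and TWIST1 were the abundant genes of the set, with and without GD-07, while E-cadherin and N-cadherin transcripts were both near 0. CLDN7 fell with GD-07, VIM did not differ beyond its error, and EPCAM, TWIST1, SNAI2, ZEB1 and ZEB2 did not pass. CLDN7, which encodes the tight junction protein claudin-7, was the gene past the threshold, 1 of 7 tested, against 5.21% of all genes tested. Its mean reached 1 TPM only through the controls (0.628 TPM with GD-07, 2.44 TPM in the controls). With no filter on low values CLDN7 did not pass (adjusted p = 0.22 by limma). By direction, 2.02% of all genes were higher and 3.19% lower with GD-07. In bulk RNA, fewer cells of a kind and less RNA per cell cannot be told apart. With 1 library left out, the share past the threshold over all genes was 17.6% for a fit lacking GD-07 replicate 1 and 11.7% for one lacking GD-07 replicate 2. It was 2.2% for a fit lacking control replicate 1 and 5.5% for one lacking control replicate 2, against which the calls of such fits are to be read. When low values were not filtered out, 0 of 26773 symbols passed in limma, and 3970 had an unadjusted p under 0.05. With 1 call among 7 genes, the count itself says nothing particular about these genes. At an unadjusted p under 0.05 there were 3 of the 7 (CLDN7, TWIST1 and EPCAM), against 24.8% of all genes. GD-07 and control values did not overlap for 5 of the 10 genes (lower for CLDN7, TWIST1 and SNAI2, higher for EPCAM and CDH2), against 43.6% of the 26773 symbols listed above 0 in at least 1 library. Among tested genes it was 4 of 7, against 55.8% of all tested.

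The sequences shown are those before the annotated starts of CLDN7, the called gene, and of its relative CLDN6, because the E-box of the ZEB and SNAI repressors can be read directly in them. Each is the 250 bases upstream of a start in RefSeq (GRCh38.p14), on the strand of the gene, with CACCTG and CAGGTG in capitals. The first CLDN7 window lies at chr17:7262479-7262728 on the minus strand, the second, for a start further upstream, at chr17:7263214-7263463 on the minus strand, and the CLDN6 window at chr16:3018184-3018433 on the minus strand.
CLDN7, inner start: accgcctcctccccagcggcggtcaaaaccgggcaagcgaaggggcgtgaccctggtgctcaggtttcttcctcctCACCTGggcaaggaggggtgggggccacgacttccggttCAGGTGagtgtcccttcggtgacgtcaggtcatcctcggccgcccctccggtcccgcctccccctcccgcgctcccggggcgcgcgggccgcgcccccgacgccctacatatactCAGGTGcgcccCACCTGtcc
CLDN7, outer start: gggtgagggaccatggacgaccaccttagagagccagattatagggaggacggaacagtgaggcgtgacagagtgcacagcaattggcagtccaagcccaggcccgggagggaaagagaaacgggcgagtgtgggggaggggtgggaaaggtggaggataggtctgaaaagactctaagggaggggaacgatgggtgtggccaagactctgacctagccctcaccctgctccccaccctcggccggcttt
CLDN6: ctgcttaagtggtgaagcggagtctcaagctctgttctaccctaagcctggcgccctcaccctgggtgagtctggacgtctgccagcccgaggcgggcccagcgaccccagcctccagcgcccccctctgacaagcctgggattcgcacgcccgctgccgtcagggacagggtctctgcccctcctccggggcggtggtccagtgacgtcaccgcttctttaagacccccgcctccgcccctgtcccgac
The inner CLDN7 window held 4 matches, which began at positions -174, -135, -20 and -9 relative to the start. Of all 35116 windows of this length in the RefSeq table, 17.5% held at least 1 match and 0.122% held 4 or more. These spellings cannot overlap each other. The outer CLDN7 window and the CLDN6 window had no match. Windows of 6 of the 10 genes were used (VIM, CDH2, CLDN6, CLDN7, ZEB1 and ZEB2), 14 windows in all. Of these 3 held the motif, and the 2 besides the inner CLDN7 window belonged to ZEB1. CDH1, EPCAM, SNAI2 and TWIST1 were not searched, so the counts leave them out. The MYC-type E-box CACGTG, a different word that reads the same on both strands, was in none of the 14 windows and in 6.34% of all windows. A match describes these letters and does not show that a factor binds there.

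VIM was the most abundant of the 10 genes and ranked 53 among all symbols by mean TPM. Vimentin forms the intermediate filament network of mesenchymal cells. VIM measured 2302 and 2485 TPM in GD-07 replicates 1 and 2, against 2656 and 2315 TPM in control replicates 1 and 2. The groups overlapped, and the libraries of each pair differed by more than the group means did. Means were 2393 ± 129.1 TPM with GD-07 and 2485 ± 240.9 TPM in the controls (SD, n = 2 each), and the log2 fold change came to -0.05 ± 0.18 (SE, with adjusted p = 0.891 by limma). Its 95% interval ran from a ratio of GD-07 to control of 0.724 up to 1.29. The sign was not fixed: it was 0.047 when control replicate 1 was left out and 0.0030 when GD-07 replicate 1 was. VIM (ENSG00000026025) lies on chromosome 10 from 17228259 to 17237593 on the plus strand in GENCODE 29 (GRCh38), where the antisense genes VIM-AS1 and AL133415.1 share 641 and 619 exon bases with it. Whether reads were assigned by strand is not given in the sources used here, so sense and antisense reads over those bases cannot be told apart.

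CDH2, which encodes N-cadherin and is often paired with VIM as a mesenchymal marker, was close to 0 in every library. Its values were 0.316 and 0.354 TPM in GD-07 replicates 1 and 2, against 0.267 and 0.226 TPM in control replicates 1 and 2. The GD-07 values were the higher ones without overlap, but all 4 lay under 0.4 TPM, at a depth that is unknown. In a fit with no filter on low values its log2 fold change was 0.10 ± 0.06 (SE, with adjusted p = 0.55 by limma). VIM and CDH2 thus had very unequal levels in the same libraries. CDH2 (ENSG00000170558) lies on chromosome 18 from 27950966 to 28177446 on the minus strand in GENCODE 29. There the antisense gene AC110015.1 shares 136 exon bases with it, over which sense and antisense reads cannot be told apart.

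**Figure D1:**
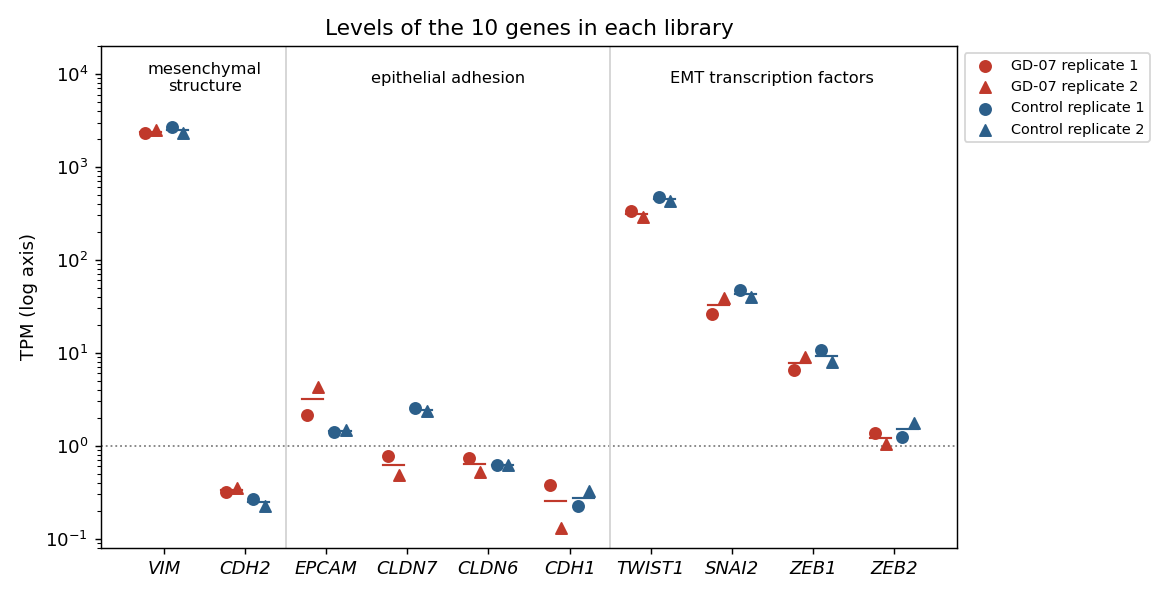
TPM of the 10 genes in each library on a log axis, GD-07 in red to the left of Control in blue, with circles for replicate 1, triangles for replicate 2, short lines for group means (n = 2) and a dotted line at the filter of 1 TPM. VIM lies at 2302 TPM or more and TWIST1 at 292.3 TPM or more in every library, CDH1 and CDH2 lie under 0.4 TPM, and the groups of CLDN7 stand apart at 0.628 and 2.44 TPM on average.

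CDH1 (ENSG00000039068, chromosome 16, 68737225 to 68835548, plus strand in GENCODE 29), which encodes E-cadherin, was as low as CDH2. It measured 0.381 and 0.130 TPM in GD-07 replicates 1 and 2, against 0.226 and 0.323 TPM in control replicates 1 and 2. The GD-07 values lay on either side of both controls. The antisense gene AC099314.1 shares 347 exon bases with CDH1, over which sense and antisense reads cannot be told apart. The fit with no filter gave a log2 fold change of -0.03 ± 0.12 (SE, with adjusted p = 0.929 by limma). The order of CDH1 and CDH2 differed between libraries. CDH2 exceeded CDH1 in 2 of 4, and the TPM ratio of CDH2 to CDH1 was 0.829 and 2.71 in GD-07 replicates 1 and 2, against 1.18 and 0.699 in control replicates 1 and 2. On the log2(TPM + 1) scale the ratio averaged 0.10 ± 0.23 with GD-07 and -0.03 ± 0.11 in the controls (SD, n = 2 each), a difference of 0.13 that lay within the spread of the GD-07 pair and was -0.04 without GD-07 replicate 2. Both cadherins of the classical EMT readout, the exchange of E-cadherin for N-cadherin, thus lay under 0.4 TPM in every library. No exact permutation test could pass here, since 2 libraries against 2 cannot go below a two-sided p of 0.33.

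EPCAM encodes a homophilic adhesion protein of simple epithelia, and its gene (ENSG00000119888) lies on chromosome 2 from 47345158 to 47387601 on the plus strand in GENCODE 29. It measured 2.12 and 4.29 TPM in GD-07 replicates 1 and 2, against 1.41 and 1.48 TPM in control replicates 1 and 2. Both GD-07 values exceeded both controls, and GD-07 replicate 2 stood well above its partner. Means were 3.21 ± 1.54 TPM with GD-07 and 1.45 ± 0.0495 TPM in the controls (SD, n = 2 each). The log2 fold change was 0.73 ± 0.27 (SE, with adjusted p = 0.141 by limma), which did not pass. It was 0.35 without GD-07 replicate 2 (adjusted p = 0.43 by limma) and 1.11 without GD-07 replicate 1 (adjusted p = 0.00628 by limma), so its size depended on which GD-07 library was kept. The part of the high mitochondrial share of GD-07 replicate 2 in this was not tested. When TPM was rescaled without mitochondrial transcripts and the most abundant symbol, the value was 0.79 (adjusted p = 0.179 by limma).

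The TPM ratio of VIM to EPCAM, a contrast of the 2 states that no scaling of a library can move, was 1087 and 579 in GD-07 replicates 1 and 2, against 1880 and 1561 in control replicates 1 and 2. Both GD-07 ratios were below both control ratios. On the log2(TPM + 1) scale it averaged 9.20 ± 0.46 with GD-07 and 9.99 ± 0.17 in the controls (SD, n = 2 each), a difference of -0.78 that carries no test and was -0.46 without GD-07 replicate 2. On that scale EPCAM itself had a fold change of 0.73 and VIM of -0.05.

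CLDN7 fell with GD-07. It measured 0.775 and 0.480 TPM in GD-07 replicates 1 and 2, against 2.52 and 2.36 TPM in control replicates 1 and 2. Both GD-07 values were under 1 TPM and both controls over 2 TPM, so CLDN7 met the filter on the mean through the controls alone. Means were 0.628 ± 0.209 TPM with GD-07 and 2.44 ± 0.111 TPM in the controls (SD, n = 2 each), so the control mean was 3.89 times the GD-07 mean in TPM. On the log2(TPM + 1) scale the fold change was -1.09 ± 0.22 (SE, with adjusted p = 0.0311 by limma), with a 95% interval from -1.57 to -0.60. The call ended without control replicate 1 (log2 fold change -1.05, adjusted p = 0.135 by limma), with no filter on low values (adjusted p = 0.22), and at a filter of 5 TPM the gene was not tested. CLDN7 (ENSG00000181885) lies on chromosome 17 from 7259903 to 7263983 on the minus strand in GENCODE 29, where AC003688.1, on the same strand, shares 269 exon bases with it and ELP5, on the opposite strand, shares 38. ELP5, a subunit of the Elongator complex, had a log2 fold change of -0.45 ± 0.18 (SE, with adjusted p = 0.171 by limma).

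CLDN6, a claudin of embryonic epithelia that reappears in some ovarian cancers, had overlapping groups. It measured 0.745 and 0.526 TPM in GD-07 replicates 1 and 2, against 0.623 and 0.616 TPM in control replicates 1 and 2. The controls lay between the GD-07 values. The fit with no filter gave 0.01 ± 0.12 on the log2 scale (SE, with adjusted p = 0.982 by limma). CLDN6 (ENSG00000184697, chromosome 16, 3014712 to 3020071, minus strand in GENCODE 29) overlaps TNFRSF12A, on the opposite strand, by 40 exon bases. TNFRSF12A, a TNF receptor family member, fell (log2 fold change -0.62, adjusted p = 0.0435 by limma). It measured 49.8 and 50.4 TPM in GD-07 replicates 1 and 2, against 80.9 and 74.5 TPM in control replicates 1 and 2. With no filter on low values TNFRSF12A did not pass, as no symbol did.

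TWIST1 was the most abundant of the 4 EMT factors of the set. It encodes a basic helix-loop-helix protein that specifies mesoderm and drives EMT in carcinomas. The gene (ENSG00000122691) lies on the minus strand of chromosome 7, from 19020991 to 19117672 in GENCODE 29. There the antisense gene AC003986.2 shares 141 exon bases with it. TWIST1 measured 332.5 and 292.3 TPM in GD-07 replicates 1 and 2, against 472.8 and 426.6 TPM in control replicates 1 and 2. Both GD-07 libraries were below both controls. Means were 312.4 ± 28.4 TPM with GD-07 and 449.7 ± 32.7 TPM in the controls (SD, n = 2 each), and the log2 fold change came to -0.53 ± 0.15 (SE, with adjusted p = 0.0766 by limma), which did not pass. Its 95% interval ran from -0.87 to -0.18. Without GD-07 replicate 1 the value was -0.62 (adjusted p = 0.00806 by limma) and without GD-07 replicate 2 it was -0.43 (adjusted p = 0.0395 by limma), and both passed. Without a control library it did not pass (limma adjusted p = 0.562 and 0.241 without control replicates 1 and 2).

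SNAI2 encodes SLUG, a zinc finger repressor of CDH1. It measured 25.9 and 38.9 TPM in GD-07 replicates 1 and 2, against 47.2 and 39.6 TPM in control replicates 1 and 2. GD-07 replicate 2 nearly reached control replicate 2, and the low value was that of GD-07 replicate 1. The log2 fold change was -0.43 ± 0.21 (SE, with adjusted p = 0.233 by limma). It was -0.15 without GD-07 replicate 1 (adjusted p = 0.608 by limma) and -0.72 without GD-07 replicate 2 (adjusted p = 0.00652 by limma), so the size of the difference rested on GD-07 replicate 1.

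The ZEB factors, which repress CDH1 and are themselves held down by the miR-200 family, were lower in level and their groups overlapped. ZEB1 measured 6.49 and 9.09 TPM in GD-07 replicates 1 and 2, against 10.7 and 7.90 TPM in control replicates 1 and 2. Its log2 fold change was -0.23 ± 0.23 (SE, with adjusted p = 0.573 by limma), and with 1 library left out it lay between -0.45 (GD-07 replicate 2) and -0.02 (GD-07 replicate 1). ZEB2 measured 1.36 and 1.04 TPM in GD-07 replicates 1 and 2, against 1.25 and 1.76 TPM in control replicates 1 and 2. Its log2 fold change was -0.19 ± 0.22 (SE, with adjusted p = 0.641 by limma), and with 1 library left out it lay between -0.34 (control replicate 1) and -0.04 (control replicate 2), with -0.08 lacking GD-07 replicate 2. ZEB1 (ENSG00000148516, chromosome 10, 31318495 to 31529814, plus strand) and ZEB2 (ENSG00000169554, chromosome 2, 144364364 to 144524583, minus strand) share 366 and 1299 exon bases with their antisense genes in GENCODE 29. All 4 EMT factors had negative values, with a median of -0.33 (-0.49 to -0.22 with 1 library left out), while 53.8% of all genes tested were negative and their median was -0.04. None of the 4 passed.

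**Figure D2:**
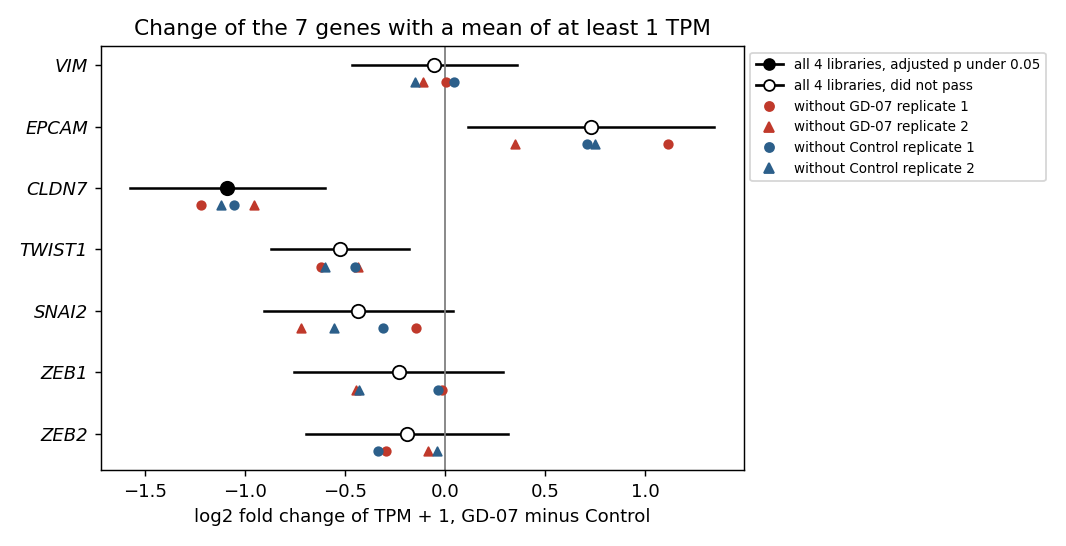
Log2 fold change of TPM + 1, GD-07 minus Control, for the 7 tested genes, with 95% limma intervals (black) and, under each, the values with 1 library left out (red for a GD-07 library, blue for a control library). The filled point is CLDN7 at -1.09, VIM sits at -0.05, and EPCAM spans 0.35 to 1.11 depending on the GD-07 library left out.

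In order of mean level, VIM had 6.40 times the TPM of TWIST1, TWIST1 had 10.1 times that of SNAI2, SNAI2 had 4.43 times that of ZEB1 and ZEB1 had 3.67 times that of EPCAM, and each of these steps held in all 4 libraries with no overlap of ranges. EPCAM, CLDN7 and ZEB2 could not be ordered, since EPCAM was above CLDN7 and CLDN7 above ZEB2 in 2 of 4 libraries each. CLDN7 was above EPCAM in both controls and below it in both GD-07 libraries. The TPM ratio of CLDN7 to EPCAM was 0.366 and 0.112 in GD-07 replicates 1 and 2. In control replicates 1 and 2 it was 1.78 and 1.59. This ratio was not among those planned, carries no test and restates the differences of both genes given above. EPCAM itself did not pass. CLDN6 came next, below ZEB2 and above CDH2 in all 4 libraries, and CDH2 and CDH1 were level with each other.

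Other cadherins were mostly low as well. Among 23 cadherin genes, CDH2 and CDH1 ranked 14 and 15 by mean TPM, and 19 of the 23 had a mean under 1 TPM. CDH24, a cadherin of the type II class, was the most abundant, with 22.6 and 20.6 TPM in GD-07 replicates 1 and 2 against 19.7 and 18.001 TPM in control replicates 1 and 2, and did not pass (adjusted p = 0.52 by limma). CDH23, the cadherin of hair cell tip links, measured 3.10 and 2.77 TPM in GD-07 replicates 1 and 2, against 6.24 and 5.67 TPM in control replicates 1 and 2. Its groups stood clear of each other, but it missed the threshold narrowly (log2 fold change -0.82 ± 0.20, adjusted p = 0.0502 by limma). CDH10 and CDH8, mainly known from the nervous system, averaged 2.21 and 1.59 TPM over all libraries, and the other 9 cadherins above CDH2 (CDH26, CDH6, CDH12, CDH17, CDH7, CDH3, CDH15, CDH9 and CDH13) averaged between 0.344 and 0.919 TPM. None of the 4 cadherins tested passed in limma.

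The most abundant genes of the adherens junction list lay far above CDH1 and CDH2. CTNNA1, which encodes an alpha-catenin that ties cadherins to actin, measured 155.6 and 147.6 TPM in GD-07 replicates 1 and 2, against 175.4 and 139.0 TPM in control replicates 1 and 2. NECTIN2, a junctional adhesion protein of the immunoglobulin family, measured 139.2 and 154.7 TPM in GD-07 replicates 1 and 2, against 125.6 and 126.7 TPM in control replicates 1 and 2. Neither passed (adjusted p = 0.896 and 0.375 by limma), nor did any other of the 11 tested genes of the adherens junction list, whose median log2 fold change was -0.11. That median changed sign without control replicate 1 (0.12, 6 of 11 positive) and was -0.03 without GD-07 replicate 2.

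The claudin family showed CLDN15 and CLDN12 in front and CLDN7 in place 4 by mean level. CLDN15, a cation-permeable claudin of the intestine, measured 15.6 and 13.0 TPM in GD-07 replicates 1 and 2, against 10.9 and 9.90 TPM in control replicates 1 and 2. CLDN12 measured 11.02 and 14.5 TPM in GD-07 replicates 1 and 2, against 12.4 and 10.96 TPM in control replicates 1 and 2. CLDN11, the claudin of myelin and Sertoli cells, measured 1.76 and 1.66 TPM in GD-07 replicates 1 and 2, against 2.72 and 2.61 TPM in control replicates 1 and 2. These 3 did not pass (adjusted p = 0.204, 0.78 and 0.222 by limma). CLDN7 was the called gene of the 4 claudins tested, against 5.21% of all genes tested, and met the filter through the controls alone. Its share of summed claudin TPM, the same values in another form, was 2.34% and 1.397% in GD-07 replicates 1 and 2. That share was 7.97% and 8.29% in control replicates 1 and 2. CLDN4, the remaining claudin above CLDN6 in level, averaged 0.696 TPM and so was not tested. It measured 1.09 and 0.844 TPM in GD-07 replicates 1 and 2, against 0.307 and 0.547 TPM in control replicates 1 and 2. Its GD-07 values were the higher ones without overlap, the opposite direction to CLDN7.

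**Figure D3:**
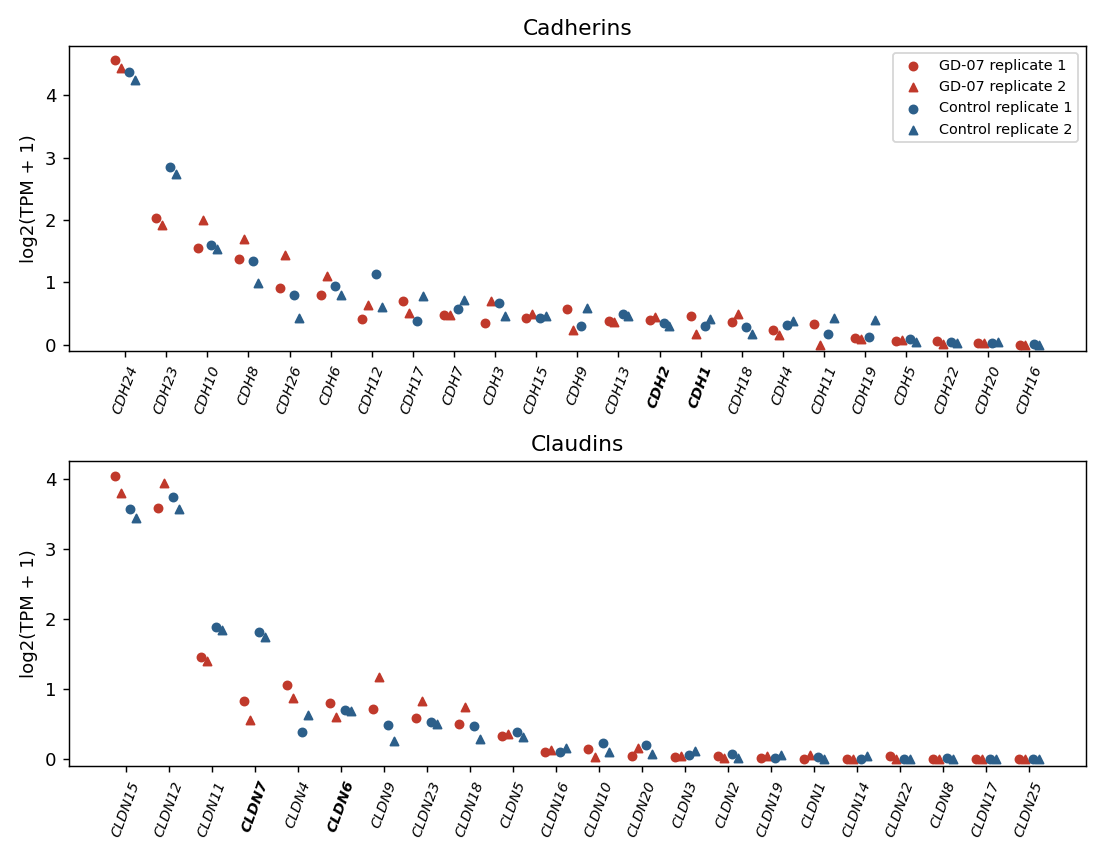
Level of each cadherin and claudin as log2(TPM + 1) in each library, in order of mean level, with the genes of the set in bold and GD-07 (red) to the left of Control (blue). CDH24 leads the cadherins and CDH2 and CDH1 rank 14 and 15, while CLDN7 ranks 4 among the claudins and averages 0.628 TPM with GD-07, against 2.44 TPM in the controls.

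Around the set, 16 lists of related genes held 153 tested genes beside the members, of which 8 passed, 3 higher and 5 lower with GD-07, or 5.23% against 5.21% of all genes tested. The lists, which were chosen with earlier results of these data known, thus held calls about as often as all genes tested. Their median log2 fold change was -0.04, the same as over all genes.

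Of 17 tested tight junction and polarity genes other than claudins, F11R rose and 16 did not pass. F11R, which encodes the junctional adhesion molecule JAM-A, measured 12.0 and 14.9 TPM in GD-07 replicates 1 and 2, against 6.53 and 6.52 TPM in control replicates 1 and 2, a log2 fold change of 0.93 ± 0.19 (SE, with adjusted p = 0.0336 by limma). It moved the opposite way to CLDN7, another protein of the same junction. Values were positive for 15 of the 17 genes, against 46.2% of all genes tested, and the list median was 0.23 (0.17 to 0.38 with 1 library left out), but 12 were positive without control replicate 2 and 11 when GD-07 replicate 2 was left out. The call of F11R ended with control replicate 1, control replicate 2 or GD-07 replicate 2 left out. It also ended after rescaling without mitochondrial transcripts and the most abundant symbol (adjusted p = 0.0549 by limma).

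Other epithelial genes did not pass. Of 10 tested epithelial regulators and surface genes 8 had negative values, against 53.8% of all genes tested, with a median of -0.37 against -0.04. The median was -0.62 when GD-07 replicate 2 was left out, where 8 of 9 tested genes were negative. It was -0.30 lacking GD-07 replicate 1 (7 of 9 negative), -0.44 lacking control replicate 2 (7 of 10) and -0.29 lacking control replicate 1 (8 of 10). CD24, a glycosylated surface protein, measured 59.5 and 81.6 TPM in GD-07 replicates 1 and 2, against 101.3 and 90.4 TPM in control replicates 1 and 2. LSR, which builds tricellular junctions, measured 52.3 and 63.7 TPM in GD-07 replicates 1 and 2, against 51.2 and 47.9 TPM in control replicates 1 and 2. Of 22 desmosome and keratin genes 17 had a mean under 1 TPM. PKP4 and KRT10 had the highest means of the 5 tested, with log2 fold changes of -0.04 and 0.26 (adjusted p = 0.901 and 0.362 by limma).

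Of 24 tested mesenchymal genes beside VIM 3 passed, all of them lower, against 3.19% of all genes tested called lower, and 21 did not pass. Negative values were found for 15 of the 24, against 53.8% of all genes, with a median of -0.16. When GD-07 replicate 2 was left out, 21 of 24 were negative with a median of -0.33, against 58.0% of all genes. The other fits lacking 1 library gave 19 of 24 (control replicate 2, median -0.18), 14 (control replicate 1, -0.09) and 13 (GD-07 replicate 1, -0.05). TAGLN, which encodes the actin-binding protein transgelin, measured 136.9 and 100.1 TPM in GD-07 replicates 1 and 2, against 296.7 and 344.5 TPM in control replicates 1 and 2, a log2 fold change of -1.44 ± 0.18 (SE, with adjusted p = 0.0114 by limma) that passed with any 1 library left out. THY1, a surface glycoprotein of mesenchymal and neural cells, measured 48.7 and 54.6 TPM in GD-07 replicates 1 and 2, against 95.7 and 85.1 TPM in control replicates 1 and 2 (log2 fold change -0.80, adjusted p = 0.0276 by limma). CALD1, the actin regulator caldesmon, measured 41.9 and 40.9 TPM in GD-07 replicates 1 and 2, against 73.8 and 61.1 TPM in control replicates 1 and 2 (log2 fold change -0.69, adjusted p = 0.0422 by limma). The calls of THY1 and CALD1 ended without control replicate 1 (adjusted p = 0.135 and 0.3333 by limma) and without the intensity trend (0.0563 and 0.0773). That of CALD1 also ended under quantile normalization (adjusted p = 0.0523 by limma). The same held after rescaling without mitochondrial transcripts and the most abundant symbol (0.0635). Of 9 fibroblast markers 3 averaged over 10 TPM and 2 under 1 TPM. All 9 summed to 45.4 and 64.8 TPM in GD-07 replicates 1 and 2, below 87.3 and 75.3 TPM in control replicates 1 and 2. All 7 of them tested had negative log2 fold changes, with a median of -0.49 (-0.21 without GD-07 replicate 1, where 6 of 7 were negative), and none passed in limma. The most abundant, COL1A1 and ACTA2, had -0.56 and -0.55 (adjusted p = 0.184 and 0.101 by limma). The part of these markers in the mesenchymal values was not tested.

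Among 8 tested intermediate filament genes of the vimentin and neurofilament classes, NEFH, the heavy neurofilament subunit, fell while VIM and 6 others did not pass. NEFH measured 33.9 and 36.7 TPM in GD-07 replicates 1 and 2, against 73.1 and 59.5 TPM in control replicates 1 and 2 (log2 fold change -0.89 ± 0.16, adjusted p = 0.0258 by limma). Without control replicate 1 it did not pass (adjusted p = 0.119 by limma).

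Of 12 tested EMT-related factors outside the set, PRRX1 fell and 11 did not pass, with a median of -0.16 (-0.24 to -0.14 with 1 library left out). PRRX1, a homeobox factor of mesenchyme, measured 37.7 and 39.1 TPM in GD-07 replicates 1 and 2, against 85.7 and 63.8 TPM in control replicates 1 and 2 (log2 fold change -0.93 ± 0.17, adjusted p = 0.0276 by limma). The call of PRRX1 ended without control replicate 1 (adjusted p = 0.136 by limma) and without limma's intensity trend (0.0509). Within the 7 genes of the ZEB, SNAI and TWIST families, TWIST1 made up 90.2% and 85.1% of summed TPM in GD-07 replicates 1 and 2, against 88.5% and 89.2% in control replicates 1 and 2.

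Upstream, 1 of 18 tested TGF-beta, activin and SMAD genes rose and 17 did not pass. Values were positive for 11 of the 18, with a median of 0.03 whose sign depended on single libraries. It was -0.26 without GD-07 replicate 2 (3 positive), -0.13 lacking control replicate 2 (5 positive), 0.15 lacking control replicate 1 (12 positive) and 0.29 lacking GD-07 replicate 1 (13 positive). ACVR2A, a type II activin receptor, measured 5.23 and 7.06 TPM in GD-07 replicates 1 and 2, against 2.75 and 2.52 TPM in control replicates 1 and 2 (log2 fold change 0.96 ± 0.22, adjusted p = 0.0417 by limma). It did not pass with control replicate 1, control replicate 2 or GD-07 replicate 2 left out. Nor did it pass after rescaling without mitochondrial transcripts and the most abundant symbol (adjusted p = 0.0654 by limma). Of 22 tested regulators and cofactors of SNAI and ZEB proteins, USP47 rose and 21 did not pass. USP47, a deubiquitinase, measured 31.8 and 37.1 TPM in GD-07 replicates 1 and 2, against 17.3 and 14.6 TPM in control replicates 1 and 2 (log2 fold change 1.07 ± 0.17, adjusted p = 0.0205 by limma), and passed with any 1 library left out. None of 10 tested genes of EpCAM processing passed in limma. The gamma-secretase subunits PSENEN and APH1A had log2 fold changes of 0.55 and 0.23 (adjusted p = 0.065 and 0.345).

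**Figure D4:**
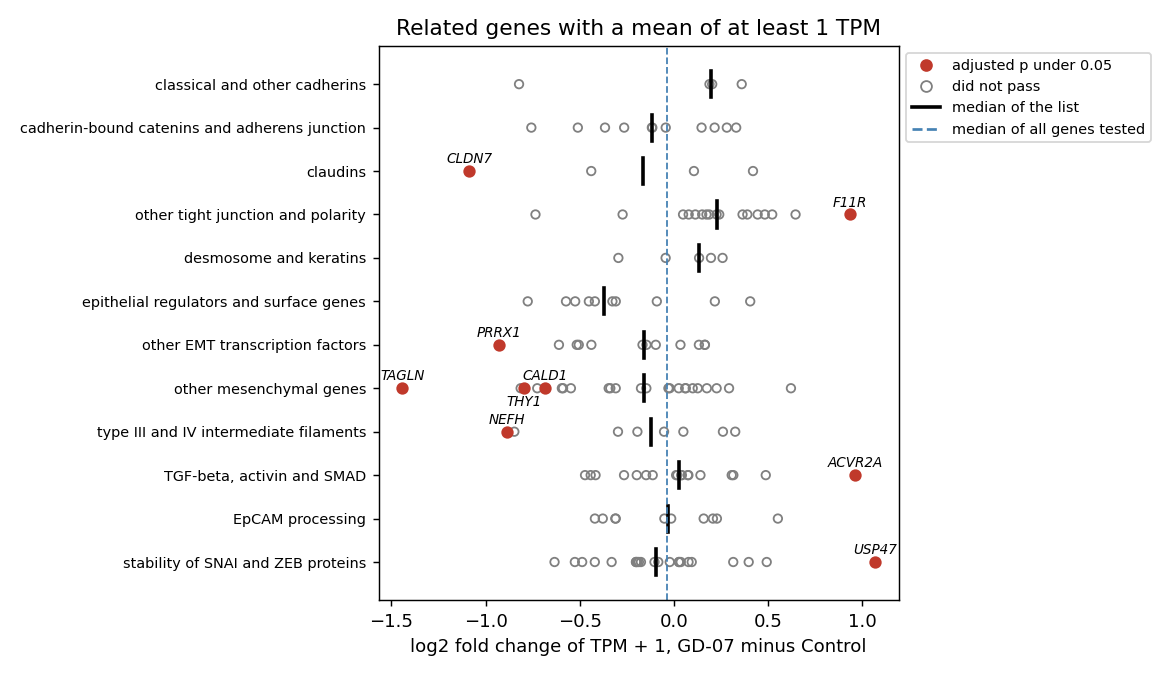
Log2 fold change of TPM + 1, GD-07 minus Control, for every tested gene of 12 lists, with genes past the threshold filled and named, a black bar at each list median and a dashed line at the median of all genes tested (-0.04). Calls lie on both sides, with TAGLN lowest at -1.44 and USP47 highest at 1.07, and most genes of every list did not pass.

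Most markers of ovarian carcinoma and all endothelial markers lay under 1 TPM on average. PAX8, a lineage factor of serous ovarian tumours, lay between 0.0568 and 0.121 TPM, and WT1, MUC16, SOX17 and ESR1 lay at or under 0.106 TPM in every library. FOLR1, the folate receptor common in ovarian tumours, was the marker at a high level, with 61.1 and 59.2 TPM in GD-07 replicates 1 and 2 against 46.4 and 50.1 TPM in control replicates 1 and 2 (adjusted p = 0.22 by limma). KRT18, a keratin of simple epithelia, had a log2 fold change of 0.20 (adjusted p = 0.589 by limma). Endothelial markers summed to 0.962 and 0.663 TPM over 7 genes in GD-07 replicates 1 and 2, against 0.750 and 0.818 TPM in control replicates 1 and 2, with CLDN5 and PECAM1 as their most abundant members. Leukocyte markers summed to 8.49 and 9.24 TPM over 10 genes in GD-07 replicates 1 and 2, against 12.5 and 9.81 TPM in control replicates 1 and 2, mostly from the macrophage marker CD68 and the cytotoxic granule gene NKG7, while PTPRC, which encodes CD45, lay between 0.652 and 1.33 TPM.

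The genes whose profile over the 4 libraries was closest to VIM, by Euclidean distance on centred log2(TPM + 1) among 13062 others, were VAPA (distance 0.0181) and GALNS (0.0213). Those closest to EPCAM were APLP1 (0.0633) and INSIG2 (0.0642), and those closest to TWIST1 were METTL3 (0.0157) and PACSIN2 (0.0212). With 4 libraries many genes have a similar profile, so these names describe likeness alone.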

How the data were processed

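Polyadenylated RNA of 4 A2780 libraries was sequenced from both ends, per the labels' protocols. The deposited TPM per gene symbol were made by the authors. Kallisto, Subread, limma 3.60.4 and GRCh38 are named in the submitters' processing notes without role or order, and the sources used here do not give how transcripts were combined per symbol. The 4 columns were matched to samples by title. TPM has no depth, so precision rests on 2 libraries per group.

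Values were analysed as log2(TPM + 1) for the 13063 symbols with a mean of at least 1 TPM, with limma 3.58.1 in R 4.3.3 (lmFit, eBayes with intensity trend, two-sided) over all 4 libraries and Benjamini-Hochberg adjustment over all symbols tested. The procedure was tested on simulated data. One listed gene is not reported here and is left out of the list counts. The 10 members and the lists were chosen with earlier results of these data known. Named genes are all members, up to 3 genes past the threshold per list or otherwise the 2 most abundant, cadherins and claudins above a member in level, and the 2 genes most like VIM, EPCAM and TWIST1. Genes that overlap a member were named by position. Alternatives covered pseudocount, filter, scaling, trend, left-out libraries and a replicate block. When 1 library is left out, the lone library of its group is assumed to vary like the other group. Coordinates are from GENCODE 29, promoters from RefSeq on GRCh38.p14, searched on both strands for the E-boxes given with the sequences. Of the 10 members 6 had promoter windows that were used.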

Additional observations from a re-analysis of the deposited data

How the results depend on the processing

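Of 88 refits of single members under 13 alternatives, 80 kept direction and side of the threshold. VIM ran from -0.15 to 0.047 with 1 library left out, changing sign without control replicate 1 or GD-07 replicate 1, and never passed. By limma, members past the threshold numbered 0 to 3 with 1 library left out, against 1 in all 4, and 0 with a filter of 5 TPM, where CLDN7 was not tested and 1 member had an unadjusted p under 0.05. With no filter 0 members, 0 related genes and 0 of 26773 symbols passed, although 2 members, 45 related genes and 3970 symbols had an unadjusted p under 0.05. Over all genes the count of 681 became 397 after rescaling without mitochondrial transcripts and the most abundant symbol, 385 without the intensity trend and 286 to 2308 with 1 library left out. Related genes past the threshold, 8 in all 4 libraries, numbered 5 after that rescaling and 2 to 25 with 1 library left out. The cause was not tested, except that leaving out a library changes which pair supplies the spread. With 2 pairs, same-numbered libraries deviated in opposite directions (r = -0.28), so the numbers were not taken as pairs. The replicate block gave 912 calls over all genes, 13 among related genes and 1 member, while crossed pairing, chosen after seeing the data, gave 2934, 42 and 3. The difference in CDH2 to CDH1 ratio was 0.49 with a pseudocount of 0.1 TPM, and that of VIM to EPCAM was -0.39 with 5 TPM, since both hold genes near the pseudocount. The split of calls was 264 higher and 417 lower, 354 and 405 under median-ratio scaling and 383 and 395 under quantile normalization. Values under 1 TPM (CDH1, CDH2, CLDN6 and CLDN7 with GD-07) rest on an unknown number of reads.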
